A study of Mus musculus with 32 samples.

Results

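Trachea was compared with lung in Car6 knockout mice. Car6 encodes carbonic anhydrase VI, an enzyme secreted into saliva and airway fluid. The comparison rests on 12 of the 28 samples of the series, chosen by their labels alone: trachea from 6 Car6-/- mice and lung from 6 Car6-/- mice, numbered 1, 2, 4, 5, 6 and 7 in each tissue. All animals were C57BL/6 males aged 2 months. The other 16 samples were trachea and lung from 8 wild-type mice each and serve here only to set the tissue difference beside that of Car6-/- mice. From each sample 150 ng of total RNA was labelled with biotin and hybridised to an Illumina bead array with 25697 probes. Trachea 5 and lung 1 of the Car6-/- mice were each run on a second array, which was averaged with the first. The labels do not say whether a trachea and a lung with one number came from one mouse, so p-values measure the spread between these samples.

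The lung is built for gas exchange. Flat alveolar type 1 cells line most of its surface, alveolar type 2 cells make and recycle surfactant, and a dense capillary bed lies under both. The trachea is an air tube held open by rings of hyaline cartilage and closed behind by smooth muscle. Its pseudostratified epithelium is renewed from basal cells and carries secretory and ciliated cells, with submucosal glands below in the upper part. A dissected trachea can also bring along strap or oesophageal muscle, fat, thyroid, parathyroid, lymph node or thymus, since all lie against it. Lists of marker genes of all these cell types were therefore read in every sample. In such bulk samples, fewer cells of a type and less RNA per cell cannot be told apart.

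Values are log2 normalized intensities. Over the genes tested they ran from 4.14 to 13.94, so that probes near the upper end have little room to differ. Arrays of Car6-/- trachea detected 11859 to 12935 probes and those of Car6-/- lung 11840 to 12603. The probe for Car6 gave no signal above background on any of the 14 Car6-/- arrays, with a lowest detection p of 0.120. Its signal before background correction was 82.7 to 96.5 in trachea and 82.9 to 95.7 in lung.

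Several samples stood apart from the rest of their tissue. The root mean square distance over all tested genes was 0.614 to 0.985 between Car6-/- tracheas, against 0.26 to 0.41 between Car6-/- lungs and 0.284 to 0.708 between wild-type tracheas. Car6-/- trachea 1 and 2 lay at 0.860 to 0.996 from the Car6-/- lungs, nearer than trachea 4, 5, 6 and 7 at 1.11 to 1.30. Both also carried alveolar transcripts. Sftpc, the surfactant protein C gene, was at 13.01 and 13.25 in them, against 5.57 to 7.79 in the other Car6-/- tracheas and 13.50 to 13.65 in lungs. Tnnc2, a fast skeletal muscle gene, was at 4.72 in trachea 1 and 12.37 to 13.86 in the other 5, and trachea 1 and 7 had the highest cardiac muscle scores, 11.88 and 10.20. Lung 5 carried skeletal muscle transcripts, with Acta1 at 12.15 against 4.32 to 6.90 in the other lungs. Lung 2 carried more airway secretory and adipocyte transcripts than the other lungs, with Bpifa1 at 12.33 against 5.65 to 9.09. Counts of list members are given below without trachea 1 and 2, and without lung 2 and 5, an alternative chosen after seeing the data, where the choice moves them by more than 1.5 times.

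Of 9497 genes tested in the 12 samples, 1938 were called higher in trachea and 2665 higher in lung, at an adjusted p under 0.05 in limma. These are 20.4% and 28.1% of the genes tested, and every count of list members below is to be read against them. Detection in at least 6 samples was required. A gene at background in all samples of 1 tissue was thus tested only if detected in all 6 samples of the other. For such genes, Trp63, Col2a1 and Cpa3 among them, a call without overlap was largely set by this filter. By a log2 difference of 1 or more, 820 genes were higher in trachea and 951 higher in lung. The groups did not overlap for 1158 genes with trachea above lung and for 1601 with lung above trachea. The median difference over all tested genes was -0.07. Scaling each array by its median in place of quantile normalization shifted this median to -0.19 and gave 1468 calls higher in trachea and 3393 higher in lung. With that scaling 30.2% of the calls were higher in trachea, against 42.1% with quantile normalization. The spread differed between the tissues: the SD was larger in trachea than in lung for 8279 genes (87.2%), with median SDs of 0.320 in trachea and 0.171 in lung. Without trachea 1 and 2, 2095 genes (22.1%) were called higher in trachea and 2817 (29.7%) higher in lung. Of the 4603 calls made with all samples, 4291 were called in the same direction without those 2, 312 were not called and 0 changed sign.

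**Figure D1:**
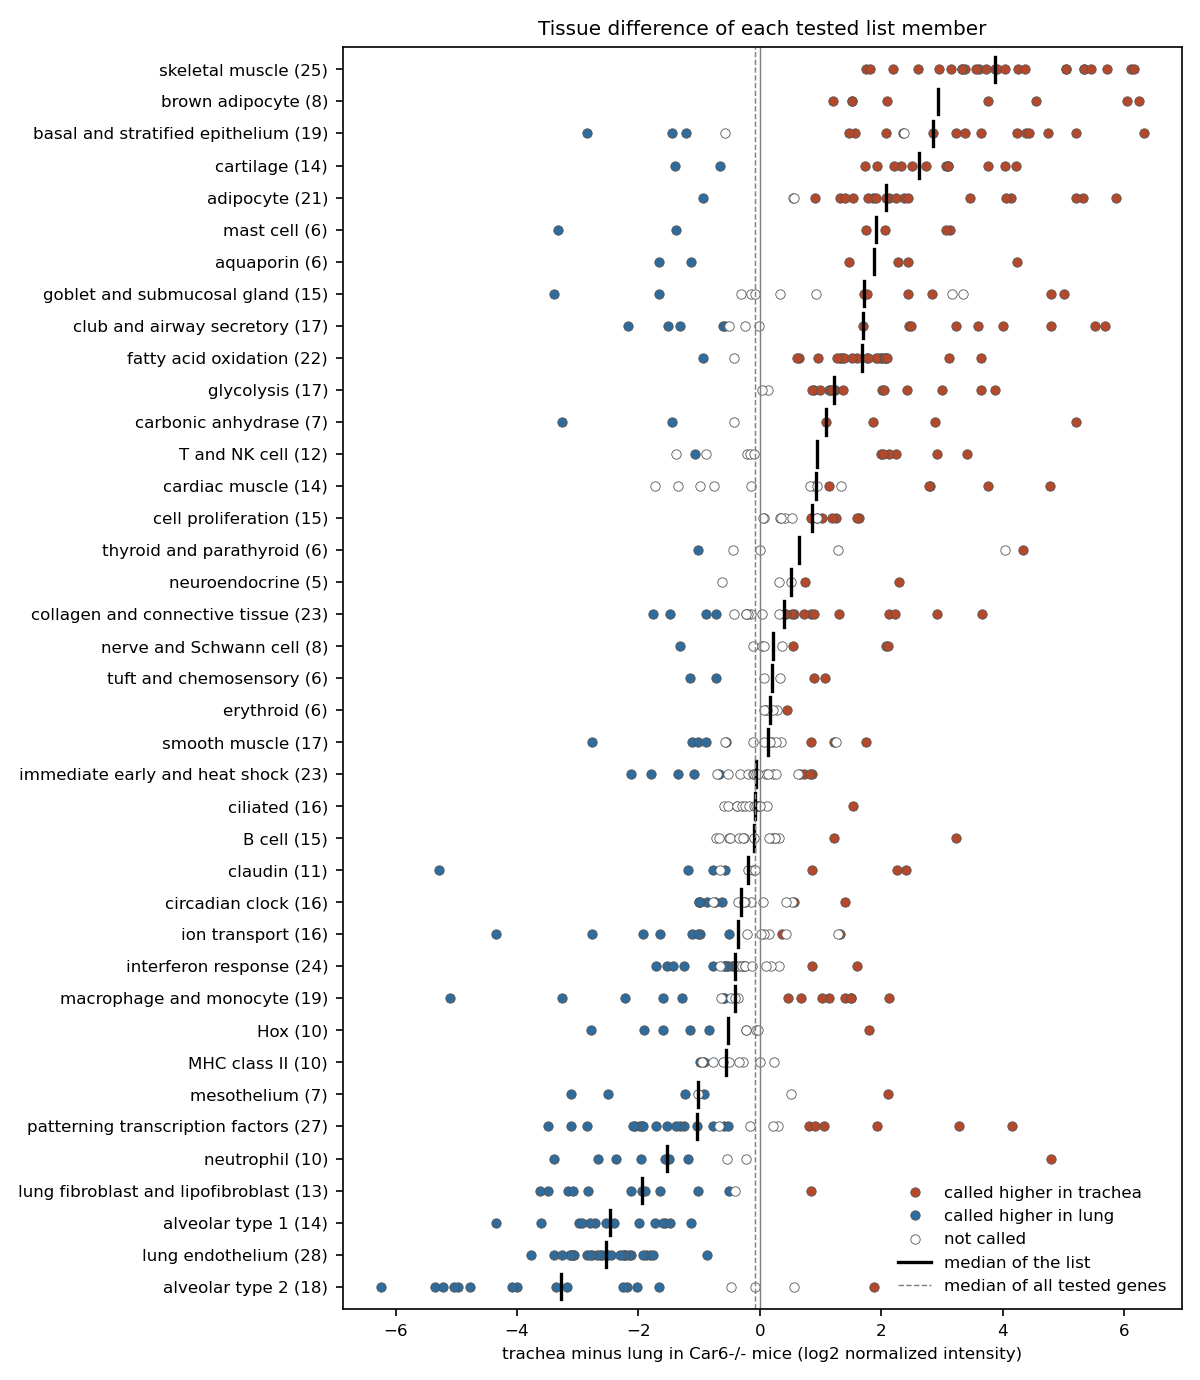
Difference of trachea minus lung in Car6-/- mice (x axis, log2 normalized intensity) for each tested member of the 39 gene lists (y axis, number of tested members in brackets, lists ordered by their median). Points are genes, coloured by the call of limma, black ticks are list medians and the dashed line is the median of all tested genes; medians run from 3.88 for skeletal muscle to -3.27 for alveolar type 2 cells.

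The strongest differences toward lung lay in alveolar type 2 genes. Sftpb, which encodes surfactant protein B, ranged from 4.37 to 10.70 in trachea (median 4.76) and from 12.43 to 12.95 in lung (median 12.78). The 2 tracheas above 9 were trachea 1 and 2, while the other 4 were near background, and no trachea reached a lung. Its probe was detected in 2 of the 6 tracheas and all lungs. This gave a difference of -6.24 ± 1.07 (SE, adjusted p = 0.000342), which rests in part on values at background, and one of -8.15 without trachea 1 and 2. Sftpa1, the gene of surfactant protein A, ranged from 5.34 to 10.32 in trachea (median 6.51) and from 12.10 to 12.75 in lung (median 12.35). Again trachea 1 and 2 held the highest tracheal values and the groups did not overlap, a difference of -5.04 ± 0.84 (SE, adjusted p = 0.000273). Sftpc ranged from 5.57 to 13.25 in trachea (median 7.29) and from 13.50 to 13.65 in lung (median 13.59). All tracheas lay below all lungs, a difference of -4.77 ± 1.23 (SE, adjusted p = 0.00609), and the difference was -6.94 without trachea 1 and 2. Of the other surfactant machinery, Slc34a2, the phosphate carrier of type 2 cells, differed by -5.35, Lamp3, a lamellar body protein, by -4.00, Abca3, the lipid pump of lamellar bodies, by -2.19, and Lpcat1, an enzyme of surfactant lecithin synthesis, by -3.37. Sftpd, the gene of surfactant protein D, which airway cells also make, differed less (-2.25) and stayed at 10.48 or above in every trachea.

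Of 20 listed alveolar type 2 genes, 18 passed the filter on detection, and 14 were called higher in lung, with a list median of -3.27 against -0.07 over all tested genes. The 14 calls held without trachea 1 and 2, where the median was -3.79. Not called were the lysozyme genes Lyz1 (-0.08, adjusted p = 0.51) and Lyz2 (-0.47, adjusted p = 0.15), both near the upper end of the scale in both tissues, and the transcription factor gene Cebpa (0.56, adjusted p = 0.113), which was called higher in trachea without trachea 4 or trachea 5 (adjusted p = 0.0392 and 0.023). Dlk1, an imprinted gene of the Notch ligand family, went the other way: it was at 5.67 to 7.16 in trachea (median 5.90) and at 4.41 or below in lung (median 4.24). It was at background on all lung arrays and at least 2.21-fold higher in trachea (adjusted p = 2.07e-05). Genes of secreted and immune products of alveolar cells were also among the largest differences toward lung, among them the neutrophil chemoattractant gene Cxcl15 (-5.21), complement factor gene Hc (-4.97), the acidic chitinase gene Chia1 (-4.08) and the chitinase-like genes Chil3 (-5.11) and Chil1 (-4.76).

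The upstream sequences of Sftpb and Sftpa1 are shown because these genes had the largest differences among surfactant protein genes and have an entry in the RefSeq table used. They were read from RefSeq, build GRCm38.p6, as the 250 bases before the annotated start. Capitals mark every match, on either strand, to CTCAAG, the core of sites that the lung factor NKX2-1 is known to bind, and, in Sftpb, to TGTTNAC, a core of forkhead factor sites.
Sftpb, chr6:72304360-72304609, plus strand: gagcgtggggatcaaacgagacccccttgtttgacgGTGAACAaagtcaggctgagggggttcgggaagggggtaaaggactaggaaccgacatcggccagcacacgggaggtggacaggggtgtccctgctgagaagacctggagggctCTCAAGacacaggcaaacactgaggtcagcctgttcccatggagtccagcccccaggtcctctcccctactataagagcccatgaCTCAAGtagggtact
Sftpa1, chr14:41131538-41131787, plus strand: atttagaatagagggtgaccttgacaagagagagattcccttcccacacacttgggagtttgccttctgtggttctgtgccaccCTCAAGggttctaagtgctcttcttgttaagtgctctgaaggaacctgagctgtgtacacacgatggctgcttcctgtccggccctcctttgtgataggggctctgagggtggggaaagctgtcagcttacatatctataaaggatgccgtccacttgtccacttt
The Sftpb window held CTCAAG 100 to 95 and 15 to 10 bases before the start, and TGTTNAC on the opposite strand 214 to 208 bases before it. The Sftpa1 window held CTCAAG 166 to 161 bases before the start. Among all 32851 RefSeq promoter windows of the same length, 13.3% held CTCAAG and 8.69% held TGTTNAC. Of 15 tested alveolar type 2 genes with a promoter entry, 2 held CTCAAG and 4 held TGTTNAC. A gene was counted if any of its windows matched, so these counts are not directly comparable with shares per window. These are matches of letters only.

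Alveolar type 1 genes were lower in trachea without exception among those tested. Of 18 listed genes 14 passed the filter, and all 14 of these were called higher in lung, with a median of -2.47 and no overlap between the groups for any of them. Ager, the gene of the receptor for advanced glycation end products and a standard type 1 marker, ranged from 5.62 to 12.01 in trachea (median 10.67) and from 13.25 to 13.47 in lung (median 13.29), a difference of -3.61 ± 0.87 (SE, adjusted p = 0.00396). Emp2, a membrane protein gene of type 1 cells, ranged from 9.50 to 10.71 in trachea (median 10.02) and from 12.69 to 12.80 in lung (median 12.76), a difference of -2.72 ± 0.19 (SE, adjusted p = 6.32e-07). Its tracheal values were closer together than those of Ager, and it differed in all 6 tracheas by more than the whole range of the lungs. Pdpn, also called T1-alpha, differed by -1.57, Vegfa, the vascular growth factor gene, by -1.73, and the basement membrane collagen genes Col4a3 and Col4a4 by -2.79 and -2.40. Cldn18, the alveolar tight junction gene, ranged from 4.23 to 8.83 in trachea (median 4.46) and from 10.74 to 11.17 in lung (median 11.11), a difference of -5.28 ± 0.79 (SE, adjusted p = 0.000114). It was detected in 2 of the 6 tracheas, trachea 1 and 2.

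Endothelial genes showed the same direction throughout. Of 30 listed genes 28 passed, and 28 were called higher in lung, with a median of -2.53. The groups did not overlap for 27 of them, the exception being Emcn (-0.87, adjusted p = 0.00581). Tmem100, an endothelial target gene of BMP signals, ranged from 7.99 to 10.42 in trachea (median 8.53) and from 12.60 to 12.79 in lung (median 12.73), a difference of -3.78 ± 0.35 (SE, adjusted p = 3.26e-06). Calcrl, a receptor gene for adrenomedullin, ranged from 4.31 to 5.78 in trachea (median 4.42) and from 7.48 to 8.33 in lung (median 8.16), a difference of -3.39 ± 0.24 (SE, adjusted p = 8.17e-07), and trachea 2 held the highest tracheal value. Pan-endothelial genes differed by -2.46 (Pecam1), -3.12 (Cdh5, the cadherin of endothelial junctions), -2.84 (Tek, the angiopoietin receptor) and -3.07 (Vwf). Car4, the membrane carbonic anhydrase of lung capillaries, differed by -3.26. Trachea 1 and 2 held the highest endothelial scores among tracheas, 8.64 and 8.81, against 7.43 to 7.80 in the others and 10.36 to 10.59 in lungs.

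Lung mesenchymal genes followed. Of 13 fibroblast and lipofibroblast genes that passed the filter, 1 was called higher in trachea and 11 higher in lung. Wnt2, a mesenchymal signal needed for lung formation, ranged from 4.41 to 6.19 in trachea (median 4.74) and from 8.00 to 8.48 in lung (median 8.22), a difference of -3.15 ± 0.30 (SE, adjusted p = 3.53e-06). Tcf21, a mesenchymal transcription factor gene, differed by -3.49, the methyltransferase gene Inmt by -3.62 and Mfap4, an elastic fibre protein gene, by -2.83. The exception was Plin2, a lipid droplet coat gene, at 0.85 (adjusted p = 0.0296), a call that was lost without trachea 1 and 2 together and without lung 2 and 5 together (adjusted p = 0.0903). It was also lost when any 1 of trachea 1, 2, 6 and 7 or lung 2, 6 and 7 was left out (adjusted p up to 0.0653). Of 7 mesothelial genes tested, 4 were called higher in lung, among them Upk3b (-3.11) and Gpm6a (-2.50), and Msln was called higher in trachea (2.11). Mesothelial genes were at 7.98 and 7.65 in trachea 1 and 2, 6.17 to 6.86 in the other tracheas and 7.38 to 8.18 in lungs.

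Transcription factor genes that pattern the foregut divided between the tissues. Of 27 tested, 6 were called higher in trachea and 17 higher in lung. Higher in lung were the T-box genes Tbx2 (-2.84), Tbx3 (-1.92) and Tbx4 (-1.94), the forkhead genes Foxf1 (-3.11), Foxa2 (-1.97) and Foxp1 (-1.53), and the Iroquois genes Irx1 (-2.07), Irx2 (-1.38), Irx3 (-1.24) and Irx5 (-1.31). Nkx2-1, which marks lung and thyroid lineages, ranged from 6.02 to 9.54 in trachea (median 8.30) and from 9.62 to 10.18 in lung (median 9.90), a difference of -1.71 ± 0.46 (SE, adjusted p = 0.00736). The groups did not overlap. Osr2, an odd-skipped gene, was at background on all lung arrays: it ranged from 7.69 to 9.89 in trachea (median 8.72) and from 4.32 to 4.72 in lung (median 4.60), at least 13-fold higher in trachea (adjusted p = 8.76e-07). Isl1, a LIM homeobox gene, was likewise at least 6.12-fold higher in trachea, and Sox9, which drives cartilage formation, at least 2.41-fold. Sox2, which marks the proximal airway, differed by 1.06. Among 10 tested Hox genes, 5 were called higher in lung, led by Hoxb5 (-2.77) and Hoxa5 (-1.91), while Hoxd8 was at least 2.28-fold higher in trachea and Hoxb2, Hoxb4, Hoxa4 and Hoxa2 were not called, with differences of -0.22 to -0.04, except that Hoxb2 was called higher in lung without trachea 6 (adjusted p = 0.0462).

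Basal cell genes were strongly higher in trachea. Krt15, a keratin of basal cells, ranged from 9.98 to 12.02 in trachea (median 11.19) and from 4.30 to 5.89 in lung (median 4.48). Every trachea lay above every lung by more than 4, a difference of 6.32 ± 0.38 (SE, adjusted p = 2.65e-07), with detection in 2 of the 6 lungs. Trp63, the master regulator of basal cells, was at background on all lung arrays and ranged from 6.76 to 9.08 in trachea (median 7.62) and from 4.29 to 4.47 in lung (median 4.37), at least 6.74-fold higher in trachea (adjusted p = 2.87e-06). Krt5 was at least 4.50-fold higher (adjusted p = 0.00104), and Krt14 and Krt17 differed by 4.75 and 5.20. Of 30 listed basal and stratified epithelial genes, 19 passed, 14 were called higher in trachea and 3 higher in lung, with a median of 2.85. Those called higher in trachea were 15 without trachea 1 and 2 and 11 without lung 2 and 5. The 3 exceptions were Icam1, an adhesion molecule gene (-2.85), the integrin gene Itga6 (-1.45) and the laminin gene Lamb3 (-1.22), which are used by other cell types as well. Genes of stratified and cornified epithelium varied between tracheas. Krt13, a keratin of suprabasal and squamous cells, was at 13.74, 11.35 and 13.78 in trachea 4, 5 and 7 and at 4.49, 5.40 and 7.59 in trachea 1, 2 and 6, against 4.34 to 6.05 in lungs. The groups therefore overlapped, a difference of 4.43 ± 1.51 (SE, adjusted p = 0.0269). That call was lost when any 1 of trachea 4, 5 and 7 or lung 2 and 6 was left out (adjusted p up to 0.058).

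**Figure D2:**
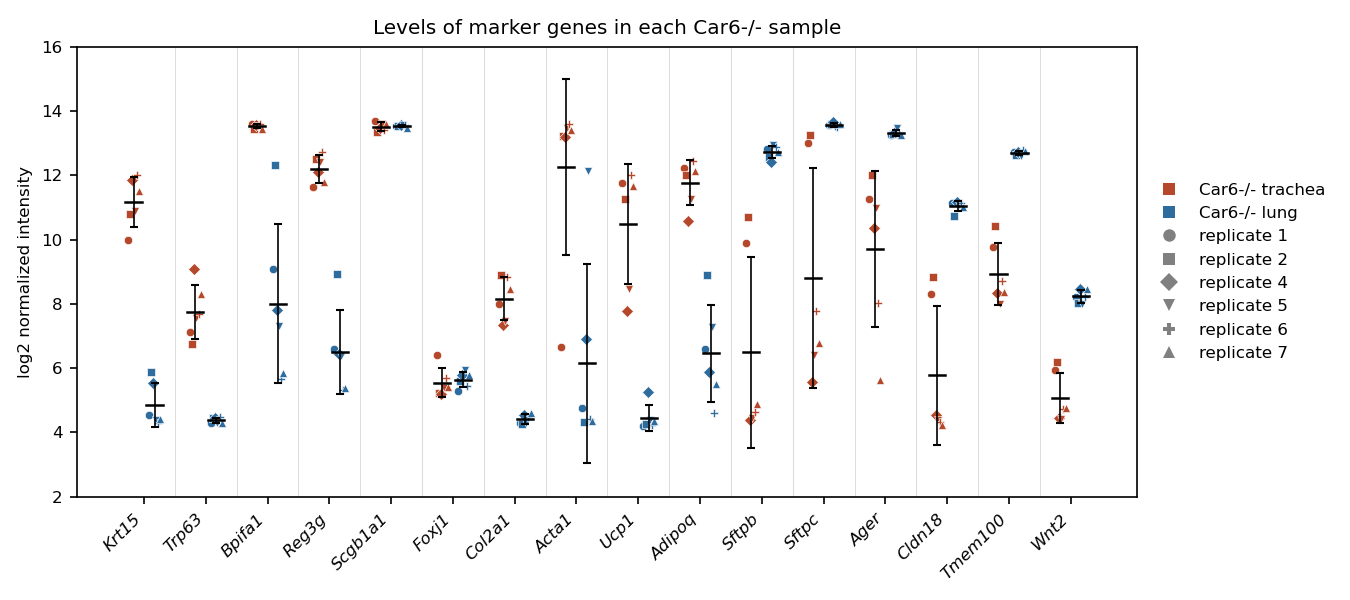
Log2 normalized intensity (y axis) of 16 marker genes in the 6 Car6-/- tracheas (red, left of each pair) and the 6 Car6-/- lungs (blue, right), with marker shape for the replicate number and bars for the mean and SD. Trachea 1 and 2 lie above the other tracheas for Sftpb, Sftpc and Cldn18, trachea 1 lies with the lungs for Acta1, lung 5 lies with the tracheas for Acta1, and Scgb1a1 and Foxj1 lie at like levels in both tissues.

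Airway secretory genes did not move as a block. Scgb1a1, the club cell secretoglobin, was at 13.52 ± 0.13 in trachea and 13.54 ± 0.04 in lung (SD, n = 6 each), near the upper end of the scale in both, and was not called (-0.02, adjusted p = 0.849). Cyp2f2, a club cell oxidase gene, was likewise high in both tissues and not called (-0.24, adjusted p = 0.0793), except higher in lung without trachea 1 (adjusted p = 0.0496). Bpifa1, a secreted antimicrobial protein of the upper airway, ranged from 13.45 to 13.61 in trachea (median 13.55) and from 5.65 to 12.33 in lung (median 7.57), a difference of 5.53 ± 0.89 (SE, adjusted p = 0.000212). The 6 tracheas lay close together while the lungs spread widely, with lung 2 highest. Reg3g, an antibacterial lectin gene, ranged from 11.63 to 12.73 in trachea (median 12.26) and from 5.32 to 8.92 in lung (median 6.40), a difference of 5.69 ± 0.50 (SE, adjusted p = 2.29e-06), and Ltf, the lactoferrin gene, differed by 4.80. Scgb3a1 differed by 3.23, Cyp2a5 by 3.60 and Aldh3a1, an aldehyde dehydrogenase gene, by 2.50. Lower in trachea were Cyp2b10 (-2.18), Cyp4b1 (-1.52), Fmo2 (-1.32), Cbr2 (-0.61) and Gsta3 (-0.58). The calls of Cbr2 and Gsta3 were lost without trachea 4 (adjusted p = 0.0502 and 0.0528), and that of Gsta3 also without lung 7 (0.0567) or lung 6 (0.0566). Of 17 secretory genes tested, 9 were called higher in trachea and 5 higher in lung. The count was 9 and 7 without trachea 1 and 2, 3 were called higher in lung without trachea 4, and the count was 9 and 3 without lung 2 and 5, of which lung 2 held the highest secretory score among lungs.

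Goblet and gland genes were called higher in trachea in 6 of 15 tested genes and higher in lung in 2. Dmbt1, a mucosal scavenger protein, differed by 5.00 (adjusted p = 0.00745), with tracheas from 5.28 to 13.61 and lungs from 4.17 to 6.04. Tff2, a trefoil factor gene, differed by 2.83, a call lost when any 1 of trachea 4, 5 and 6 or lung 4, 6 and 7 was left out (adjusted p up to 0.0656), and Pigr, the carrier of secretory immunoglobulin A, by 1.71. Lcn2, an iron-scavenging lipocalin gene, went the other way (-3.40, adjusted p = 9.03e-05). Gland scores were 10.15 to 10.72 in trachea 4, 5 and 6, 7.86 to 8.98 in trachea 1, 2 and 7, and 7.72 to 8.50 in lungs, and 9 genes were called higher in trachea without trachea 1 and 2.

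Ciliated cell genes did not separate the tissues with all samples. Of 30 listed genes 16 passed the filter, 1 was called higher in trachea and 0 higher in lung, below the share over all genes in both directions, with a median of -0.08. Without trachea 6, 3 of them were called higher in lung. Without trachea 1, 2 and 6, 5 were called higher in lung, with a median of -0.41. In that setting 2844 of all 9497 genes were called higher in lung. The median of the list in wild-type mice was -0.53. Foxj1, the master factor of motile cilia, was at 5.55 ± 0.45 in trachea and 5.64 ± 0.24 in lung (-0.09, adjusted p = 0.734), and Cfap52 differed by 0.00 and Rsph1 by -0.02. The 1 called gene was Mlf1, which ranged from 9.57 to 10.46 in trachea (median 10.39) and from 8.24 to 9.16 in lung (median 8.66), a difference of 1.54 ± 0.19 (SE, adjusted p = 2.83e-05). Scores of the list ran from 7.20 to 8.59 in trachea and from 7.81 to 8.51 in lung. Of 6 tuft cell genes tested, Gnat3, the taste transducin gene, and Avil were at background on all lung arrays and at least 1.48-fold and 1.29-fold higher in trachea, whereas Alox5ap (-1.15) and Plcb2 (-0.71), which leukocytes also express, were higher in lung. Of 5 neuroendocrine genes tested, 2 were called higher in trachea, Uchl1 (0.74) and Scg5 (2.29), both of which lost the call without trachea 4 or without any 1 of lung 1, 2, 4, 5 and 7, among other samples (adjusted p up to 0.102 for Scg5 and 0.0752 for Uchl1). Without trachea 1, which held the highest Uchl1 value, the difference of Uchl1 was 0.46. Without lung 2 and 5 together, 0 of the 5 were called.

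Most tested cartilage genes were higher in every trachea. Col2a1, the collagen of hyaline cartilage, was at background on all lung arrays and ranged from 7.33 to 8.89 in trachea (median 8.23) and from 4.26 to 4.61 in lung (median 4.39), at least 8.98-fold higher in trachea (adjusted p = 5.93e-07). Col10a1, which marks hypertrophic chondrocytes, was at least 11.9-fold higher, Matn1, a matrilin of tracheal cartilage, at least 5.35-fold, and Acan, the aggrecan gene, at least 5.30-fold. Cytl1, a secreted chondrocyte protein, ranged from 9.65 to 11.33 in trachea (median 10.97) and from 6.09 to 7.08 in lung (median 6.59), a difference of 4.04 ± 0.30 (SE, adjusted p = 8.27e-07). Of 25 listed genes 14 passed, 12 were called higher in trachea without overlap and 2 higher in lung, namely Chst3 (-1.40) and Sox5 (-0.66), with a median of 2.62. For members at background on all lung arrays, such as Col2a1, Col10a1, Matn1 and Acan, that call was largely set by the detection filter. Among members that did not pass, Col11a1 was detected in 5 tracheas and 0 lungs, Hapln1 in 3 and 0, Epyc in 1 and 0, and Col9a1 in 0 and 1. Col9a3, Col11a2, Matn3, Sox6 and Cnmd were detected in 0 tracheas and 0 lungs. The call of Sox5 held only without trachea 1, trachea 6 or lung 5 when single samples were left out (adjusted p up to 0.0903), and was lost without lung 2 and 5 together (adjusted p = 0.0503). Trachea 1 and 2 did not stand below the rest here, with scores of 7.59 and 8.35 against 7.37 to 8.31 in the other tracheas and 5.39 to 5.61 in lungs. Of 23 connective tissue genes tested, 12 were called higher in trachea and 4 higher in lung, but the counts were 8 and 5 with median scaling. Lum, a collagen-binding proteoglycan gene, showed the largest difference (3.66), followed by Thy1 (2.91) and Pi16 (2.22), while Ogn (-1.48), Pdgfra (-1.76) and Sparc (-0.89) were higher in lung.

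**Figure D3:**
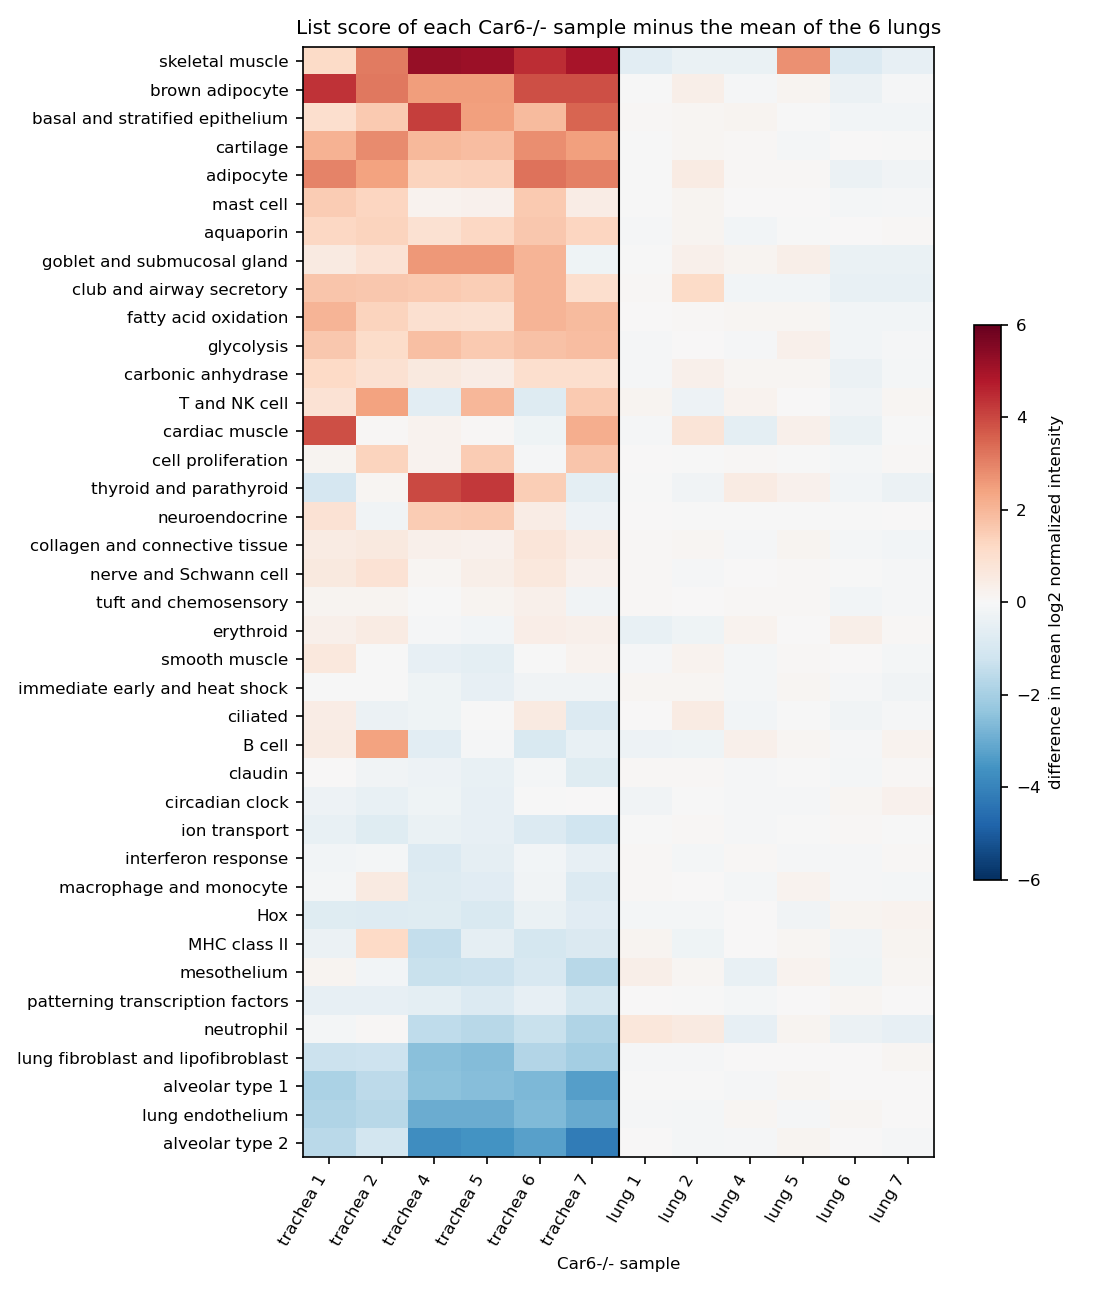
Mean log2 normalized intensity of the tested members of each gene list (rows, ordered by median difference) in each Car6-/- sample, minus the mean of the 6 lungs; the 6 tracheas stand left of the line and the 6 lungs right of it, red is above and blue below the lung mean. Trachea 1 and 2 are paler than the other tracheas for alveolar and endothelial lists, trachea 1 is paler for skeletal muscle and darker for cardiac muscle, trachea 4 and 5 are darker for thyroid genes, and lung 5 is red for skeletal muscle.

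Striated muscle genes were unequal within the tracheas. Acta1, the skeletal alpha-actin gene, was at 6.67 in trachea 1 and 13.20 to 13.62 in the other tracheas, against 12.15 in lung 5 and 4.32 to 6.90 in the other lungs. The groups overlapped through trachea 1 and lung 5, a difference of 6.12 ± 1.49 (SE, adjusted p = 0.00417). Leaving out trachea 1 and 2 gave a difference of 7.28. Myh8, the perinatal myosin heavy chain gene, had the largest difference of all called genes: it ranged from 5.19 to 13.61 in trachea (median 12.79) and from 4.25 to 5.08 in lung (median 4.77), a difference of 6.93 ± 1.16 (SE, adjusted p = 0.000288). Only trachea 1, at 5.19, lay near the lungs, and lung 5 did not stand out for it at 4.98. Of 33 listed skeletal muscle genes 25 passed the filter, and 25 were called higher in trachea, with a median of 3.88. The groups did not overlap for 6 of them, among them Mb, the myoglobin gene (3.15), Des, the desmin gene, which smooth muscle also uses (1.75), and Eno3, the muscle enolase gene (3.88). Scores of the list were 7.73 in trachea 1 and 9.67 to 11.82 in the other tracheas, against 9.30 in lung 5 and 5.76 to 6.19 in the other lungs. Without lung 2 and 5 all 25 were called and the median was 4.40.

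The Acta1 upstream window is shown because it holds a CArG box, the site of serum response factor in muscle genes. It is the 250 bases before the start in RefSeq, build GRCm38.p6, and capitals mark the CArG box.
Acta1, chr8:123894776-123895025, minus strand: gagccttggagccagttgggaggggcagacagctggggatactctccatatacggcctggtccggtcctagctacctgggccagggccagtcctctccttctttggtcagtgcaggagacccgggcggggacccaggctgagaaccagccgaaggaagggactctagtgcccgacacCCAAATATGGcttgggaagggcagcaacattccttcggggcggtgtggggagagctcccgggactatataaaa
The box lay 73 to 64 bases before the start. It was held by 1.47% of all 32851 promoter windows and by 2 of the 18 tested skeletal muscle genes with an entry, Acta1 and Myh4. E-box letters, CANNTG, were held by 16 of those 18 genes and by 66.2% of all windows. Here too a gene was counted if any of its windows matched, whereas the shares are per window.

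Cardiac and smooth muscle genes differed from that pattern. Of 14 cardiac genes tested, 5 were called higher in trachea, led by Myl3 (4.78) and Cox7a1 (3.76), which slow skeletal muscle and brown fat also use. The atrial genes Myl7 and Nppa and the myosin gene Myh6 were not called (-1.73, 0.95 and -1.36, with adjusted p = 0.262, 0.647 and 0.371). Nppa was at 13.77 in trachea 1 and 10.48 in trachea 7, against 4.68 to 10.50 in lungs. Without trachea 1 and 2, 4 cardiac genes were called higher in lung, against 0 with all samples. Leaving out trachea 1 alone gave 4 as well, among them Myl7 (-2.78, adjusted p = 0.0189) and Myh6 (-2.46, adjusted p = 0.0164). Of 17 smooth muscle genes tested, 3 were called higher in trachea and 5 higher in lung. Acta2, Tagln and Myh11, which define smooth muscle, were not called, with differences of 0.14, 0.16 and 0.26 (adjusted p = 0.612, 0.637 and 0.424). Ppp1r14a, an inhibitor of myosin phosphatase (-2.77), and Hhip, the hedgehog interacting protein gene (-1.12), were higher in lung, and Tpm2 (1.23) higher in trachea.

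Fat cell genes were higher in all 6 tracheas. Adipoq, the adiponectin gene, ranged from 10.57 to 12.45 in trachea (median 12.07) and from 4.60 to 8.89 in lung (median 6.25), a difference of 5.32 ± 0.60 (SE, adjusted p = 1.35e-05), and lung 2 held the highest lung value. Ucp1, which uncouples respiration in brown fat, ranged from 7.78 to 12.02 in trachea (median 11.47) and from 4.21 to 5.27 in lung (median 4.31), a difference of 6.04 ± 0.69 (SE, adjusted p = 1.44e-05). Trachea 4 and 5 were the lowest tracheas for Ucp1 at 7.78 and 8.46, and no lung reached them. Cidea, a lipid droplet gene of brown fat, differed by 6.24, and Cox8b by 4.56. Of 21 adipocyte genes tested, 18 were called higher in trachea, with a median of 2.08, and Cd36, a fatty acid carrier that capillaries also express, was called higher in lung (-0.93). Of the brown adipocyte genes that passed, 8 of 8 were called higher in trachea, with a median of 2.93, and 7 of 8 without trachea 1 and 2 or without lung 2 and 5. Lep, the leptin gene, was at background on all lung arrays and at least 3.22-fold higher in trachea. Fuel genes of muscle and fat moved in the same direction: 20 of 22 fatty acid oxidation genes and 15 of 17 glycolysis genes were called higher in trachea, with medians of 1.68 and 1.23. Cpt1b, the muscle form of the mitochondrial fatty acid gate, differed by 3.64, Slc2a4, the insulin-responsive glucose carrier, by 3.00, and the widely used reference gene Gapdh by 1.24. Some genes stand on more than 1 list (Eno3 on glycolysis and skeletal muscle, Cox7a1 on cardiac muscle and brown adipocyte, Fabp3 on fatty acid oxidation and brown adipocyte), so these counts are not independent of each other.

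Thyroid and parathyroid genes marked single tracheas. Tg, the thyroglobulin gene, was at 13.49, 13.59 and 12.97 in trachea 4, 5 and 6, at 4.49 to 5.33 in the other 3 and at 4.31 to 6.99 in lungs. The difference of 4.03 was not called with all samples (adjusted p = 0.0664), but was without trachea 1, 2 or 7 (adjusted p = 0.0344, 0.0291 and 0.0253). Pth, the parathyroid hormone gene, was above 10 in trachea 2, 4 and 5 and at 10.00 in trachea 7, near background in trachea 1 and 6, and at 4.22 to 6.02 in lungs (4.34, adjusted p = 0.0271), a call lost without trachea 4, 5 or 7 or lung 7 (adjusted p up to 0.0578). Of 6 listed genes tested, 1 was called higher in trachea and 1 higher in lung, and the counts were 3 and 1 without trachea 1 and 2 and 0 and 1 without lung 2 and 5.

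Leukocyte genes differed from list to list. Neutrophil genes were lower in trachea: of 10 tested, 7 were called higher in lung, among them the calprotectin genes S100a8 (-2.36) and S100a9 (-1.96) and Retnlg (-2.67), with a median of -1.53, and the 1 call toward trachea was Ltf, which glands also make. Macrophage genes went both ways. Chil3, which alveolar macrophages make, and Ctss, a cathepsin gene (-1.29), were higher in lung. Complement genes C1qa, C1qb and C1qc (1.14, 1.40 and 1.50) and Folr2 (2.14) and Cd163 (1.49), which mark tissue-resident macrophages, were higher in trachea, and the groups did not overlap for these 5 genes. Mast cell proteases were at background on all lung arrays and higher in trachea: Cpa3 ranged from 6.92 to 8.62 in trachea (median 7.74) and from 4.32 to 4.70 in lung (median 4.52), at least 6.33-fold (adjusted p = 9.82e-07), Mcpt4 at least 5.88-fold, Cma1 at least 3.53-fold and Tpsb2 at least 2.19-fold. Gata2 (-3.32) and Hdc (-1.39), which are on that list and used by other cells too, were higher in lung.

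Lymphocyte genes followed single tracheas. Cd8b1, a co-receptor chain of cytotoxic T cells and thymocytes, was at 10.67 and 12.09 in trachea 1 and 2, 9.27 and 12.73 in trachea 4 and 5, and 7.70 and 12.25 in trachea 6 and 7, against 6.71 to 7.83 in lungs (3.42, adjusted p = 0.00177). T and NK cell scores were 8.74 to 9.59 in trachea 2, 5 and 7, 6.41 to 8.04 in trachea 1, 4 and 6, and 6.89 to 7.36 in lungs. Proliferation scores were 7.25 to 7.55 in the same 3 tracheas, 5.84 to 6.10 in the others and 5.79 to 5.98 in lungs. Of 12 T and NK cell genes tested, 6 were called higher in trachea and 1 higher in lung. Those counts were 3 and 3 without trachea 1 and 2, and 2 and 1 without lung 2 and 5, and 3 were called higher in lung without trachea 2 alone. B cell and MHC class II results turned on trachea 2. The B cell score was 8.59 in trachea 2, 5.26 to 6.68 in the other tracheas and 5.87 to 6.49 in lungs. With all samples, 2 of 15 B cell genes were called higher in trachea and 0 higher in lung, and 2 of 10 MHC class II genes were called higher in lung. Without trachea 2, 3 B cell genes and 8 MHC class II genes were called higher in lung, and 9 of each without trachea 1 and 2. Cd74, the invariant chain gene, differed by -0.93 with all samples and by -1.23 without those 2.

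Carbonic anhydrases other than Car6 differed in both directions. Of 16 listed genes 7 passed the filter, of which 4 were called higher in trachea and 2 higher in lung. Car3, a cytosolic form abundant in fat and slow muscle, ranged from 11.55 to 12.80 in trachea (median 12.36) and from 4.65 to 9.12 in lung (median 7.22), a difference of 5.21 ± 0.63 (SE, adjusted p = 2.34e-05). Lung 2 held the highest lung value and lung 6 the lowest, and the groups did not overlap. Car13, a further cytosolic form, ranged from 7.38 to 9.88 in trachea (median 8.11) and from 5.14 to 6.15 in lung (median 5.38), a difference of 2.89 ± 0.38 (SE, adjusted p = 4.2e-05). Car5b, a mitochondrial form, differed by 1.86 (adjusted p = 1.11e-05) and Car11, a form without catalytic activity, by 1.09 (adjusted p = 0.00109). Car4 ranged from 6.03 to 8.85 in trachea (median 7.24) and from 10.35 to 10.92 in lung (median 10.64), a difference of -3.26 ± 0.42 (SE, adjusted p = 3.79e-05), with trachea 1 and 2 at 8.42 and 8.85. Car2, the fast cytosolic form, ranged from 5.34 to 6.24 in trachea (median 5.72) and from 7.03 to 7.46 in lung (median 7.21), a difference of -1.45 ± 0.16 (SE, adjusted p = 1.19e-05). Car14, a membrane form, was not called (-0.42, adjusted p = 0.0898) but was called higher in lung without trachea 1 or 7 (adjusted p = 0.0302 and 0.0422). Car3 is also on the adipocyte list and Car4 on the endothelial list, and the part of fat and capillaries in their differences was not tested.

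**Figure D4:**
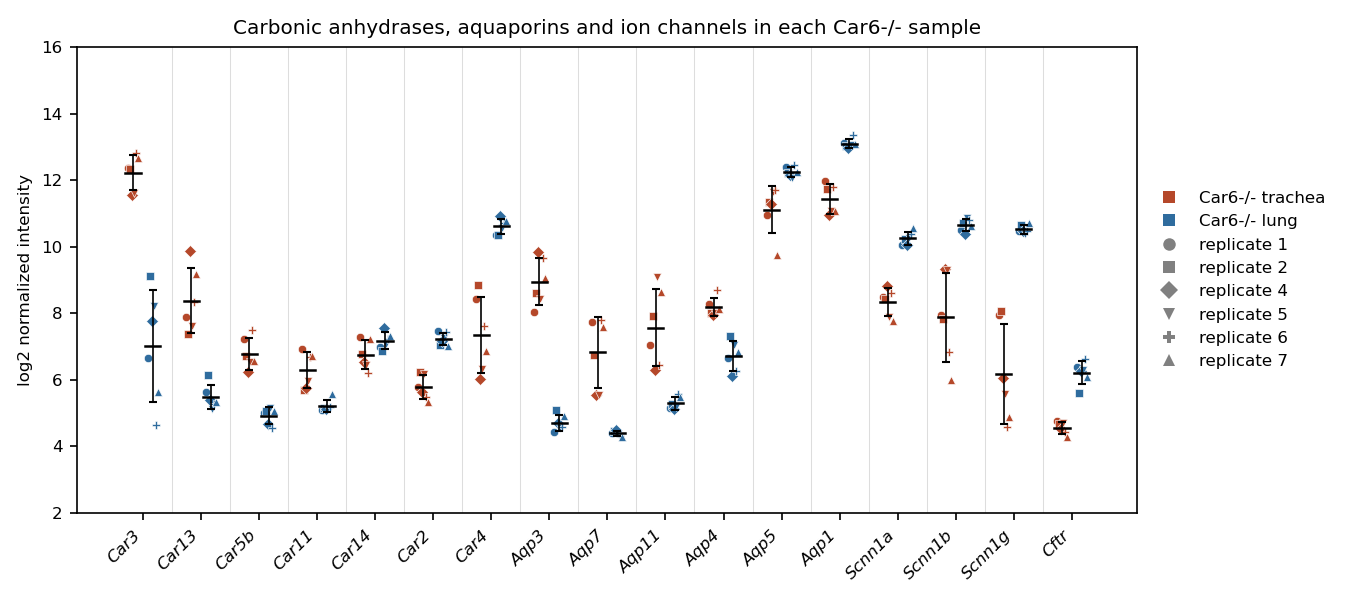
Log2 normalized intensity (y axis) of 7 carbonic anhydrases, 6 aquaporins, 3 sodium channel subunits and Cftr in the 6 Car6-/- tracheas (red, left of each pair) and the 6 Car6-/- lungs (blue, right), with marker shape for the replicate number and bars for the mean and SD. Car3, Car13, Car5b, Car11, Aqp3, Aqp7, Aqp11 and Aqp4 lie higher in trachea and the other genes apart from Car14 higher in lung.

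Of 16 channel and carrier genes of the airway fluid tested, 2 were called higher in trachea and 8 higher in lung, and without lung 2 and 5 the counts were 1 and 7. The 3 subunits of the epithelial sodium channel differed by -1.92 (Scnn1a), -2.77 (Scnn1b) and -4.34 (Scnn1g), and for none did the groups overlap. Scnn1g ranged from 4.59 to 8.05 in trachea (median 5.82) and from 10.38 to 10.73 in lung (median 10.47), a difference of -4.34 ± 0.54 (SE, adjusted p = 2.96e-05). Cftr, the chloride and bicarbonate channel gene, was at background on all tracheal arrays and ranged from 4.27 to 4.76 in trachea (median 4.59) and from 5.60 to 6.62 in lung (median 6.29), at least 2.36-fold lower in trachea (adjusted p = 3.67e-06). Ano1, a calcium-activated chloride channel gene, differed by -0.99, and the anion transporter genes Slc26a9 and Slc26a4 by -1.12 and -1.02. Kcnn4, a potassium channel gene, was higher in trachea (1.33). The bicarbonate carrier gene Slc4a2 and the sodium pump gene Atp1b1 were not called (-0.21 and 0.02, adjusted p = 0.0875 and 0.96), though Slc4a2 was called higher in lung without trachea 6 (adjusted p = 0.0361).

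Water channels went in both directions. Aqp3, of basal cells, ranged from 8.05 to 9.83 in trachea (median 8.83) and from 4.44 to 5.08 in lung (median 4.65), a difference of 4.23 ± 0.28 (SE, adjusted p = 4.68e-07). Aqp4, of the basolateral side of airway cells, differed by 1.47, Aqp11 by 2.28, and Aqp7, the glycerol channel of fat, was at least 3.55-fold higher in trachea. Aqp1, of capillaries, and Aqp5, of type 1 cells and glands, were higher in lung (-1.66 and -1.13). All 6 tested aquaporins were called and in none did the groups overlap. Among 11 claudins tested, Cldn4 (2.26), Cldn11 (2.41) and Cldn23 (0.85) were called higher in trachea, and Cldn18, Cldn15 (-1.18), Cldn10 (-0.77) and Cldn12 (-0.57) higher in lung. These claudin counts were 2 and 2 without lung 2 and 5, and 2 were called higher in lung without any 1 of lung 1, 2 and 5. When single samples were left out, the call of Cldn23 held only without trachea 1, 2 or 5 (adjusted p up to 0.0939), that of Cldn15 only without trachea 1 or 2 or lung 4 or 6 (up to 0.0745), and that of Cldn10 only without trachea 4, 5 or 6 or lung 7 (up to 0.0683).

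The tissue difference of Car6-/- mice was set beside that of wild-type mice, which were separate samples normalized together with them. In wild-type mice 29.8% of 10015 genes were called higher in trachea and 38.5% higher in lung, from 8 samples a tissue. Over the 9420 genes tested in both genotypes, the tissue differences correlated with r = 0.935 (Spearman's rho 0.911), as a description across genes, and the slope of Car6-/- on wild-type differences was 0.794. Of 4572 Car6-/- calls tested in wild type, 4208 were called there in the same direction, and 4 genes were called in opposite directions. Sftpb differed by -6.24 in Car6-/- and -8.41 in wild-type mice, Acta1 by 6.12 and 6.96, Krt15 by 6.32 and 6.90, Col2a1 by 3.75 and 4.18, and Ucp1 by 6.04 and 3.79. Median differences were -3.27 in Car6-/- and -3.48 in wild-type mice for alveolar type 2 genes, 3.88 and 5.88 for skeletal muscle, 2.62 and 3.10 for cartilage, and 2.08 and 1.06 for adipocytes. Without Car6-/- trachea 1 and 2, the Car6-/- medians were -3.79 for alveolar type 2 genes and 4.82 for skeletal muscle. They were then 2.62 for cartilage and 2.06 for adipocytes.

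**Figure D5:**
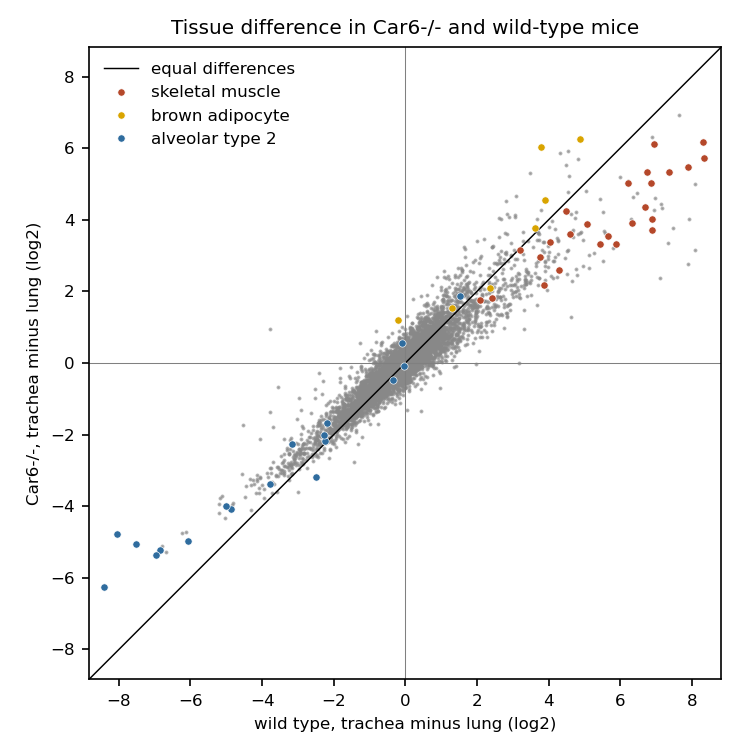
Difference of trachea minus lung for each of the 9420 genes tested in both genotypes, in Car6-/- mice (y axis, log2) against wild-type mice (x axis, log2), with the line of equal differences. Skeletal muscle (red) and alveolar type 2 genes (blue) with large differences lie nearer 0 in Car6-/- than in wild-type mice, and several brown adipocyte genes (yellow) lie above the line.

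Whether the tissue difference itself differed between the genotypes was tested in 1 limma model of all 28 samples. That model takes a shared spread per gene over all groups. Its SE and p can thus be too small for genes that vary most among Car6-/- tracheas. Of 10529 genes, 0 were called at an adjusted p under 0.05, where the lowest adjusted p was 0.178, and 1446 (13.7%) had an unadjusted p under 0.05. The count of calls depended on single samples. It was 672 without Car6-/- trachea 4, 214 without Car6-/- trachea 5, 2 without wild-type trachea 3 and 73 with array weights, and 0 in every other setting run. Without Car6-/- trachea 1 and 2, 820 genes had an unadjusted p under 0.05. Without Car6-/- trachea 1, 2 and 6 that count was 580, with a lowest adjusted p of 0.881. If no gene differed, 526 of the 10529 genes would be expected under that threshold. The smallest p were those of Exoc3l4 (-1.15 in Car6-/- and -0.29 in wild-type mice, unadjusted p = 6.98e-05) and Tmc7 (0.09 and 1.31, unadjusted p = 9.79e-05). Smoc1 (2.18 and 0.74), Tcte3 (0.03 and -0.70) and Aatk (0.26 and -0.90) came next. Adipocyte genes were among those that followed, at the same adjusted p of 0.178. Pparg, the master factor of fat cells, was at 9.09 ± 1.02 in Car6-/- trachea and 7.31 ± 0.33 in Car6-/- lung, against 7.59 ± 0.21 in wild-type trachea and 7.38 ± 0.15 in wild-type lung (SD, n = 6, 6, 8 and 8). Its tissue differences were 1.79 in Car6-/- and 0.21 in wild-type mice, with a difference between them of 1.57 ± 0.37 (SE, unadjusted p = 0.000232, adjusted p = 0.178). Pck1, a gene of glycerol and glucose synthesis, differed by 1.86 in Car6-/- and 0.45 in wild-type mice, and Ffar4, a fatty acid receptor gene, by 0.55 and -0.68. Of 21 adipocyte genes, 19 had an unadjusted p under 0.05 in this test. Other lists also lay above the 13.7% over all genes. Among them were 12 of 22 fatty acid oxidation, 10 of 15 B cell, 9 of 17 smooth muscle and 10 of 25 skeletal muscle genes. The counts were 0 of 16 for circadian clock genes and 1 of 16 for ciliated genes. Members of a list vary together, so these are not independent counts. On the other side were Casq1, a calcium store protein of fast muscle (1.79 in Car6-/- and 3.72 in wild-type mice), and Abcb4, a phospholipid pump gene (1.87 and 3.40). Adipocyte scores ran from 8.24 to 10.18 among Car6-/- tracheas, lowest in trachea 4 and 5, and the part of fat content in these values was not tested.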

How the data were processed

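Probe intensity was deposited by the authors as a mean signal on the linear scale without background subtraction or normalization, and beside each signal, per the file headers, a detection p-value. They also deposited log2 values, 94.0% of which lay within 0.01 of log2 intensity after quantile normalization within each tissue. The sources used here do not name scanner software or chip layout.

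Background was corrected with normexp (limma 3.58.1 in R 4.3.3, function nec, offset 16), followed by quantile normalization of all 32 arrays and log2. Second arrays were averaged. Each symbol was represented by its probe of highest mean over all 28 samples, chosen before the filter on detection. Probes were then tested if detected (p under 0.01) in at least 6 compared samples. Of 25697 probes, 23978 had 1 symbol, 0 several and 1719 none, and 23962 named probes matched the RefSeq gene table. Of 2186 symbols with several probes that passed the filter, 9 had probes called in opposite directions when every probe was fitted, none of them named here. Adjusted p are Benjamini-Hochberg values from limma (lmFit and eBayes) over all genes tested, and 0.05 was the threshold. Where a group was at background on all its arrays, "at least N-fold" sets the other group's mean against, per sample, whichever was higher, its own value or the lowest among detected probes. A list's score is the mean log2 intensity of its tested members. Promoters came from the 250 bases before the start in RefSeq.

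Samples were not paired by number in the main fit. Deviations of same-numbered tracheas and lungs correlated above 0.1 in 2 of 6 pairs, which cannot decide whether they share a mouse. Members and lists were chosen with earlier results of these data known. Named were Car6, the 15 largest calls per direction, up to 5 members of each list discussed with the smallest p and called members of opposite sign, carbonic anhydrases, the 8 smallest p per direction between genotypes and the 8 most variable genes per tissue. Not all of these are discussed, and other list members named were chosen after their values were seen. Alternatives covered background, normalization, the deposited log2 values, filters, probes, second arrays, array weights, samples and the replicate block. The fit was tested on simulated data. The number of arrays limits the precision.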

Additional observations from a re-analysis of the deposited data

Results flagged for a closer look

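In some genes and list scores named above, 1 of the 6 Car6-/- tracheas or lungs lay far from the other 5, with its gap to the nearest above the 95% critical value of Dixon's test. This held for 37 of the 500 groups of values tested. The count cannot be set against a chance rate, since some genes were named for their spread and many vary together. Lung 2 held 13 of them. It was highest for the airway genes Reg3g (8.92, next 6.60), Cyp2a5 (11.03, next 9.43), Aldh3a1 (10.10, next 9.23), Krt17 (5.43, next 4.58) and Cfap52 (7.04, next 6.46), for Pi16 (8.42), Ffar4 (8.52), Dlk1 (4.41) and Acan (4.61), the last 2 near background, and for the secretory score (11.39, next 10.33) and the ciliated score (8.51, next 8.07). It was lowest of the lungs for Cldn18 (10.74) and Hhip (5.60). Lung 5 held 6, led by the muscle genes Acta1 (12.15, next 6.90), Tnnc2 (11.22, next 5.95) and Myh4 (8.35, next 4.38) and the skeletal muscle score (9.30, next 6.19), and it was highest for Lpcat1 (9.49) and Ano1 (8.24).

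Trachea 1 was lowest of the tracheas for Acta1 (6.67, next 13.20), Myh8 (5.19, next 12.14) and Tnnc2 (4.72, next 12.37), and highest for Uchl1 (7.20, next 5.82). Trachea 2 was highest for Ctss (8.41, next 6.74), Chst3 (8.16, next 6.76) and Calcrl (5.78, next 4.58), and lowest for Mlf1 (9.57, next 10.25). Trachea 7 was lowest for Ltf (12.19, next 13.40), trachea 6 was highest for Avil (5.80) and trachea 4 for Clock (9.55). Among the remaining lungs, lung 1 was highest for Asprv1 (6.43) and lowest for Mfap4 (11.92), lung 4 was highest for Ucp1 (5.27, next 4.40) and Plcb2 (6.57) and lowest for Irx5 (7.82), and lung 7 was highest for Car11 (5.57) and lowest for Clock (8.56).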

How the results depend on the processing

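The tissue comparison in Car6-/- mice was repeated in 16 other settings and with each of the 12 samples left out. With 1 sample left out, 1744 to 2026 genes were called higher in trachea and 2434 to 2787 higher in lung, and the interaction with genotype gave 0 to 672 calls. Those were 672 without Car6-/- trachea 4, 214 without Car6-/- trachea 5 and 2 without wild-type trachea 3, and array weights gave 73, so the absence of calls with all samples depends on single tracheas. The cause was not tested. With the replicate block, 1763 and 2423 genes were called, and the interaction had 0 calls and 1409 genes with an unadjusted p under 0.05. Of 6 tracheas, 1 correlated best with the lung of its own number. This cannot decide the pairing, since the tracheas also differed in alveolar, muscle and thyroid transcripts. Scaling moved the balance of calls, with 1468 and 3393 after median scaling and 1687 and 3098 in the deposited log2 table (35.3% higher in trachea). Without a filter on detection the counts were 2089 and 2775 of 18312 genes, and without lung 2 and 5, chosen after seeing the data, 1571 and 2288. For 211 genes named in the text, 3270 of 3366 values in these other settings kept direction and side of the threshold, 43 lost the call, 35 gained it, 0 calls changed sign and 18 uncalled values moved. With 1 sample left out, 2412 of 2532 did so, 76 lost and 17 gained the call and 27 uncalled values moved. List medians moved by more than the SD of the list score between tracheas in 29 of 624 cases and in 0 of 468 with 1 sample left out. Leaving out 1 sample can hardly move a median that far, so the 0 is no measure of stability. The calls of 12 named genes were lost when 1 sample or another was left out (Cbr2, Cldn10, Cldn15, Cldn23, Gsta3, Krt13, Plin2, Pth, Scg5, Sox5, Tff2 and Uchl1), and 11 not called with all samples were then called (Asprv1, Car14, Cebpa, Clock, Cyp2f2, Ffar4, Hoxb2, Myh6, Myl7, Slc4a2 and Tg). Probes near the upper end of the scale, such as those of Scgb1a1, Lyz1 and Bpifa1, and probes near background limit the differences that the arrays can show.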

Other observations

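Of 16 circadian clock genes tested, 2 were called higher in trachea and 6 higher in lung, with a median of -0.32. Per1, a core repressor of the clock, ranged from 8.02 to 8.36 in trachea (median 8.20) and from 8.70 to 9.63 in lung (median 9.16), a difference of -0.99 ± 0.15 (SE, adjusted p = 0.000162), and the groups did not overlap. The clock genes Clock, Arntl and Nr1d1 were not called (-0.24, 0.43 and -0.37, adjusted p = 0.279, 0.276 and 0.13), although Clock was called higher in lung without trachea 4 (adjusted p = 0.0193). Clock gene counts higher in trachea and in lung were 1 and 4 without trachea 1 and 2, and 1 and 5 without lung 2 and 5. With median scaling, 1 clock gene was called higher in trachea and 10 higher in lung. Of 23 immediate early and heat shock genes tested, 5 were called higher in lung, led by Ier3 (-2.13), Jun (-1.80) and Dusp1 (-1.35), and 4 higher in trachea, among them Egr1 (0.66) and the mitochondrial chaperone gene Hspd1 (0.85), while Fos was not called (-0.52, adjusted p = 0.207).

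Of 24 interferon response genes tested, 2 were called higher in trachea and 12 higher in lung, with a median of -0.41. Ifit3 ranged from 7.38 to 8.17 in trachea (median 7.89) and from 9.03 to 9.97 in lung (median 9.61), a difference of -1.71 ± 0.19 (SE, adjusted p = 1.19e-05), without overlap. Cxcl9, a chemokine gene induced by interferon gamma, was the opposite (1.61, adjusted p = 0.00302), with tracheas from 5.26 to 7.84 and lungs from 4.89 to 5.47. Of 15 proliferation genes tested, 8 were called higher in trachea, among them Birc5 (1.63), an inhibitor of apoptosis used in mitosis, and Tyms (0.86), an enzyme of thymidine synthesis, and 0 higher in lung. That count was 5 without lung 2 and 5. Haemoglobin genes were not called: Hba-a1 differed by 0.09 (adjusted p = 0.381) and Hbb-bt by 0.29 (adjusted p = 0.361). Of 8 nerve and Schwann cell genes tested, 3 were called higher in trachea, led by Ncmap, a myelin gene, at least 3.19-fold, and Pmp22 was called higher in lung (-1.32).

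Some of the most variable tracheal genes were present in a few tracheas only. Asprv1, a protease gene of cornified skin, was at 13.82, 9.48 and 13.50 in trachea 4, 5 and 7 and 4.58 to 5.77 in the other tracheas, against 4.79 to 6.43 in lungs. Lor, the loricrin gene, was at 13.23, 11.46 and 13.54 in the same 3 and 4.95 to 5.10 in the others, against 4.58 to 8.77 in lungs. Dcpp1, a secreted gland protein gene, was at 13.63, 13.26 and 8.75 in trachea 4, 5 and 6 and 4.44 to 4.86 in the others, against 4.44 to 6.59 in lungs. None of these 3 genes was called with all samples (adjusted p = 0.0855, 0.128 and 0.118), and all 3 were called without trachea 1 and 2 (adjusted p = 0.0148, 0.0145 and 0.0168).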
